A study of Mus musculus with 8 samples.

Results

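The insulin-like growth factor axis was followed on arrays of mouse testis RNA through 10 genes: the ligands Igf1 and Igf2, the receptors Igf1r and Igf2r, the binding proteins Igfbp2, Igfbp3, Igfbp4, Igfbp5 and Igfbp6, and the transcription factor Foxo3. All probe sets annotated to these symbols were taken, 15 of 12488 on the array. Of these, 14 had a single symbol and stood for 9 genes, and the remaining one was shared by Tmem119 and Igfbp5. The genes were chosen by their intensities in knockout and wild type arrays, with Igf2 and Igfbp6 known to be higher in knockouts, so differences from wild type are given below as a description with no test. The series held 8 Affymetrix MG_U74Av2 arrays, 2 for each of 4 genotypes. These were the double knockout, Ku86(-/-);G3-Terc(-/-), the Terc knockout, Ku86(+/+);G3-Terc(-/-), the Ku86 knockout, Ku86(-/-);Terc(+/+), and the wild type, Ku86(+/+);Terc(+/+). G3 marks the third generation without Terc, which encodes the RNA component of telomerase. Ku86, the product of Xrcc5, binds broken DNA ends in non-homologous end joining. The labels give neither age nor strain, and the cells in which the genes are lost are not restricted by any label. Double knockout replicate 1 pooled 3 mice, as its scanner record states.

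IGF1 and IGF2 are small secreted proteins that act through IGF1R, a receptor tyrosine kinase, while IGF2R takes IGF2 to the lysosome and does not signal as IGF1R does. The binding proteins hold the ligands outside the cell and set how much of them reaches the receptor, and kinases below IGF1R keep FOXO3 out of the nucleus. In the mouse testis the pathway is known for driving Sertoli cell proliferation, and Leydig cells also respond to IGF1.

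Median intensity per array ran from 60.4 to 73 on the knockout arrays and from 49.7 to 59.3 on the wild type arrays, in arbitrary units. The arrays were scanned on 3 days. Double knockout replicate 1 and Ku86 knockout replicate 1 were scanned on day 1, wild type replicate 1 on day 3, and the other 5 arrays on day 2. Each day had its own chip lot, so scan day and chip lot cannot be told apart below. Wild type replicate 1 was a repeated hybridisation and had the lowest median. A probe set of Xrcc5, the gene for Ku86, read between 259 and 459 on arrays labelled as lacking Ku86 and between 11.1 and 75.6 on the others, which goes against the direction of its labels. Its other probe set read at most 3.4 on all arrays, and Terc had no probe set. Where the Xrcc5 probes lie in the transcript is not known here, so every genotype below is the genotype on the label, and each direction drawn between genotypes rests on those labels. Spermatid markers such as Prm1 (13783 to 18507) and the Leydig cell enzyme Cyp17a1 (477 to 1042) were both measured, whereas the scanner records call the samples germ cells and the labels testis. In a whole tissue, fewer cells of a type and less RNA per cell cannot be told apart.

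Of the 14 probe sets with 1 symbol, 7 passed the filter on low values and were tested, 1 each for Igf1, Igf2, Igf1r, Igf2r, Igfbp2, Igfbp6 and Foxo3. A probe set was tested when the mean of its log2 values over all 8 arrays, with values below the floor of 11.8 set to it, reached an intensity of 38.1. Igf2r was the nearest above that limit, with a geometric mean of 46.3, and an Igfbp4 probe set the nearest under it, with 36.1.

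Igf2, the growth factor expressed from the paternal allele in most mouse tissues, was higher on all knockout arrays than on either wild type array. It read 368 and 295 on the double knockout arrays, 323 and 288 on the Terc knockout arrays, 298 and 268 on the Ku86 knockout arrays, and 151 and 209 on the wild type arrays. The lowest knockout array was a Ku86 knockout and the highest a double knockout, and the knockout genotypes overlapped one another. The log2 difference from wild type was 0.89 ± 0.26 in the double knockout, 0.78 ± 0.26 in the Terc knockout and 0.67 ± 0.26 in the Ku86 knockout (SE). Within scan day 2 these differences were smaller, at 0.50, 0.54 and 0.36, and after median centring they were 0.62, 0.44 and 0.44. A second Igf2 probe set lay between 5.2 and 17.7 and at or under the floor on 5 of 8 arrays, so it carried no measurable difference.

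RefSeq lists 4 start sites for Igf2 on the minus strand of chromosome 7 in assembly GRCm38.p6, and the 150 bases before each are printed because the probe set does not tell which start was used. Capitals mark the GC box, spelled GGGCGG, the TATA box, spelled TATAAA, and the CCAAT box, spelled by its name, each on either strand. No base lay in 2 different motifs. Start sites are numbered from the 5′ end of the gene, at chr7:142666817-142666966, chr7:142661272-142661421, chr7:142658805-142658954 and chr7:142657497-142657646.
Igf2 start 1: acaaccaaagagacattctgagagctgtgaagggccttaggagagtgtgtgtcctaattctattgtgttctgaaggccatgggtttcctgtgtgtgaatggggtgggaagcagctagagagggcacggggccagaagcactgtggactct
Igf2 start 2: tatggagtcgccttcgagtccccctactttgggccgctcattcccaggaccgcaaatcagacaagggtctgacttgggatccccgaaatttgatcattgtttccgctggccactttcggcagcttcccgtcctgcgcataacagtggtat
Igf2 start 3: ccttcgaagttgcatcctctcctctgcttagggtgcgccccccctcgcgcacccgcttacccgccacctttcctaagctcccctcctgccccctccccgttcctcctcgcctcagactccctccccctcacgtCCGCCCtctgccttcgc
Igf2 start 4: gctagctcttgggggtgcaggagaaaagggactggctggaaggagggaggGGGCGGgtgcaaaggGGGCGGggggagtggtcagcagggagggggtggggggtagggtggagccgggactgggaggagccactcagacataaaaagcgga
Over 250 bases start 3 held 1 GC box, start 4 held 2 GC boxes and 1 CCAAT box beyond the printed stretch, and starts 1 and 2 held no match. The GC content over 250 bases was 50.8%, 47.6%, 68.8% and 66.0% at starts 1 to 4, against a median of 52.4% over 32851 windows of all genes. Such windows held a GC box in 32.7% of cases, a TATA box in 12.4% and a CCAAT box in 33.8%. A match is a description of letters and says nothing of a factor bound there.

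Igf1, the ligand made in liver under growth hormone and also within the testis, differed little between genotypes. It read 539.6 and 577 on the double knockout arrays, 590 and 797 on the Terc knockout arrays, 649 and 629.9 on the Ku86 knockout arrays, and 703 and 565 on the wild type arrays. All 3 knockout genotypes overlapped the wild type or lay inside its range. The log2 differences from wild type were -0.18 ± 0.22, 0.12 ± 0.22 and 0.02 ± 0.22 (SE) in the double, Terc and Ku86 knockouts. Median centring brought them to -0.44, -0.21 and -0.21, so the sign for the single knockouts depended on the scaling. Within scan day 2 the double knockout array lay above the wild type array, 577 against 565. The dimmer Igf1 probe set ranged from 9.5 to 53.5 and was not tested.

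Igf1r, the signalling receptor, had its highest value on a double knockout array. It read 133 and 261 on the double knockout arrays, 123 and 176 on the Terc knockout arrays, 81.4 and 189 on the Ku86 knockout arrays, and 65 and 117 on the wild type arrays. Double and Terc knockout arrays lay above both wild type arrays, and the Ku86 knockout overlapped them. In each of the 4 genotypes replicate 2 was higher than replicate 1, by a mean of 0.89 on the log2 scale, and 13.5% of all tested probe sets had replicate 2 higher in every genotype. All replicate 2 arrays were scanned on day 2, and the part of the scan day or chip lot in this difference was not tested. Both Terc knockout arrays, at 123 and 176, were scanned on day 2 with the same chip lot. The log2 difference from wild type was 1.10 ± 0.46 in the double knockout, 0.75 ± 0.46 in the Terc knockout and 0.51 ± 0.46 in the Ku86 knockout (SE). Within scan day 2 these were 1.16, 0.33 and 0.69. Without Ku86 knockout replicate 2 the value for that genotype was -0.10.

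Igf2r, the receptor that clears IGF2 and is expressed from the maternal allele in mouse, read 58.4 and 41 on the double knockout arrays, 75.3 and 65.1 on the Terc knockout arrays, 28.3 and 68.9 on the Ku86 knockout arrays, and 31.8 and 28.9 on the wild type arrays. Both wild type arrays lay under the filter intensity of 38.1, so Igf2r was tested only through its knockout arrays, and its place above wild type supports nothing. Terc knockout arrays were the highest genotype by mean, double knockout arrays also lay above the wild type, and a Ku86 knockout array was the lowest of all 8. The log2 differences from wild type were 0.69 ± 0.54, 1.21 ± 0.54 and 0.54 ± 0.54 (SE) in the double, Terc and Ku86 knockouts. With the floor at the 40th percentile the first of these was 0.36, and without Ku86 knockout replicate 2 the last was -0.10.

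Igfbp6, the binding protein with a preference for IGF2, had the widest range of the tested genes, 7.85-fold from its lowest to its highest array. It read 363 and 381 on the double knockout arrays, 291 and 119.6 on the Terc knockout arrays, 101 and 315 on the Ku86 knockout arrays, and 127 and 48.5 on the wild type arrays. The double knockout arrays were the highest 2 and lay close together. Each single knockout had 1 array above both wild type arrays and 1 array inside their range. The log2 difference was 2.24 ± 0.57 (SE) in the double knockout, or 4.73-fold, at rank 9 from the highest of 7282 probe sets. It was 1.25 ± 0.57 in the Terc knockout and 1.18 ± 0.57 in the Ku86 knockout (SE). Within scan day 2 the 3 differences were 2.97, 1.94 and 2.70, and without wild type replicate 2 they were 1.54, 0.55 and 0.49. Without Ku86 knockout replicate 2 the Ku86 difference was 0.36.

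Igfbp2, another secreted binding protein, read 101 and 109 on the double knockout arrays, 98.9 and 168 on the Terc knockout arrays, 90.3 and 89.9 on the Ku86 knockout arrays, and 84.6 and 105 on the wild type arrays. Only Terc knockout replicate 2 lay far from the others. Its log2 differences from wild type were 0.15 ± 0.34, 0.45 ± 0.34 and -0.06 ± 0.34 (SE) in the double, Terc and Ku86 knockouts, and after median centring the first was -0.11. Without Terc knockout replicate 2 the Terc difference was 0.07.

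Igfbp3, the main carrier of IGF1 in blood, was near the floor. Its probe sets read 2.8 to 20.7 and 13.3 to 34.2 over the 8 arrays, and neither was tested. Igfbp4, a binding protein that holds back IGF action until it is cleaved, had 3 probe sets with highest values of 20.3, 25.2 and 90.2. The brightest read 52.9 and 90.2 on the double knockout arrays, 23.9 and 22.5 on the Terc knockout arrays, 80.1 and 19.9 on the Ku86 knockout arrays, and 13.3 and 52.7 on the wild type arrays. Replicates of a genotype differed there as much as genotypes did, and the other probe sets of Igfbp4 did not follow it. The probe set shared by Igfbp5 and Tmem119 lay between 5.1 and 14.8, at or under the floor on 6 of 8 arrays, and cannot be assigned to either gene.

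Foxo3, the transcription factor held in check below the receptor, read 102 and 124 on the double knockout arrays, 124 and 111 on the Terc knockout arrays, 71.1 and 98.8 on the Ku86 knockout arrays, and 49.2 and 63.6 on the wild type arrays. As for Igf2, every knockout array lay above both wild type arrays, with the Ku86 knockout between the other knockouts and wild type. The log2 differences were 1.01 ± 0.34, 1.07 ± 0.34 and 0.58 ± 0.34 (SE) in the double, Terc and Ku86 knockouts. Within scan day 2 they were 0.96, 0.89 and 0.64, and after quantile normalization 0.76, 0.77 and 0.35.

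**Figure D1:**
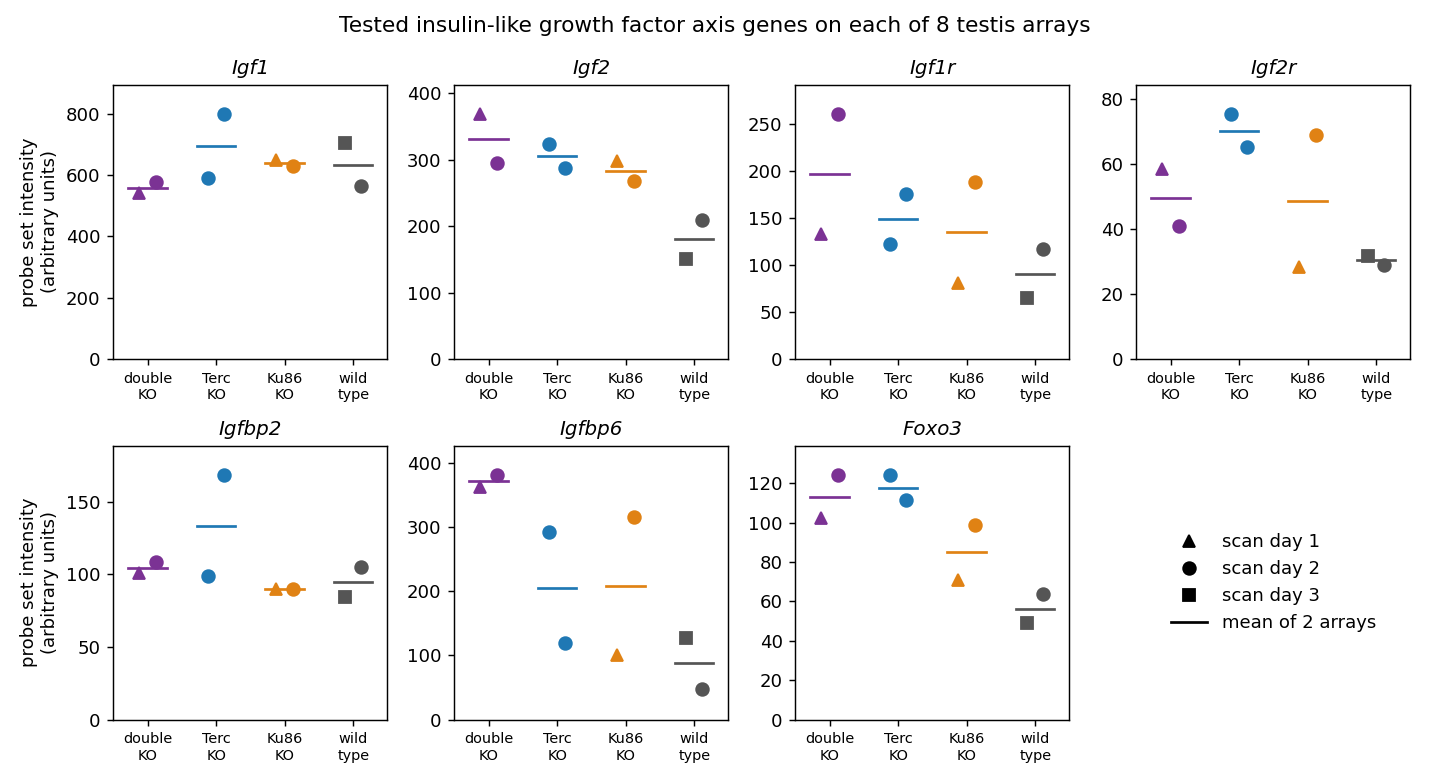
Probe set intensity (arbitrary units, linear axis from 0) of the 7 tested genes on each array, by genotype, with the mean of the 2 arrays as a bar and the scan day as the symbol. All knockout arrays lie above both wild type arrays for Igf2 (268 against 209 at the nearest) and Foxo3 (71.1 against 63.6), and the 2 arrays of each single knockout lie far apart for Igfbp6.

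The windows before the single RefSeq start sites of Igfbp6 and Foxo3, at chr15:102144036-102144185 on the plus strand and chr10:42276696-42276845 on the minus strand of GRCm38.p6, are printed because, with Igf2, these genes had the largest differences from wild type relative to their SE in the double knockout. Capitals mark the same motifs.
Igfbp6: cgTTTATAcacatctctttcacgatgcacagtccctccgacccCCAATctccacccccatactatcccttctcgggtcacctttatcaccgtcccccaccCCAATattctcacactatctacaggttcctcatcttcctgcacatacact
Foxo3: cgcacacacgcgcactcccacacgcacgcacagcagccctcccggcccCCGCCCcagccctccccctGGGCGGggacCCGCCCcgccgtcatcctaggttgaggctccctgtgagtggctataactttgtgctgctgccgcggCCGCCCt
Over 250 bases Igfbp6 held 1 TATA box, 2 CCAAT boxes and no GC box at a GC content of 49.6%. Foxo3 held 5 GC boxes, no TATA box and no CCAAT box at 76.4%. A forkhead motif (TGTTTAC on either strand) was found before none of the start sites of the 10 genes and in 3.17% of all windows, and no match says only that these letters are not in the window.

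Against wild type, 6 of the 7 tested genes were above 0 in the double knockout, 7 of 7 in the Terc knockout and 6 of 7 in the Ku86 knockout, where all tested probe sets were above 0 in 58.7%, 61.1% and 59.7% of cases. The median log2 difference of the 7 genes was 0.89, 0.78 and 0.54 in the double, Terc and Ku86 knockouts, while the median over all tested probe sets was 0.08, 0.11 and 0.10. The double and Terc medians were the values of Igf2, a gene known beforehand to be higher in knockouts. The Ku86 median was the value of Igf2r, and it was 0.04 without Ku86 knockout replicate 2 and 0.82 without replicate 1. A probe set was called when its limma p, adjusted by Benjamini and Hochberg's method, was under 0.05, and 0 of the 7 genes were called in these comparisons. Of all probe sets, 0.0275% were called in the double knockout, 0.0275% in the Terc knockout and 0.0412% in the Ku86 knockout, and 626, 514 and 430 of 7282 had an unadjusted p under 0.05. Both double knockout arrays lay above both wild type arrays for 5 of 7 genes, Igf2r among them, and 23.2% of all probe sets. For the Terc knockout this held for 4 of 7 genes, again with Igf2r, and 25.5% of probe sets, and for the Ku86 knockout for 2 of 7 genes and 24.4%. All 6 knockout arrays lay above both wild type arrays for Igf2 and Foxo3, 2 of 7 genes, and for 7.62% of probe sets. The 3 comparisons share the wild type arrays, and the values of the genes had chosen them, so nothing is read from these counts. After median centring the counts were 4, 3, 2 and 2 of 7, with 10.3%, 8.87%, 10.1% and 1.87% of all probe sets. Set against wild type replicate 2 alone, all 6 knockout arrays were higher for 3 genes, Igf2, Igfbp6 and Foxo3, and for 15.3% of probe sets. Set against wild type replicate 1 alone they were higher for 4 genes, Igf2, Igf1r, Igfbp2 and Foxo3, and for 29.5%.

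**Figure D2:**
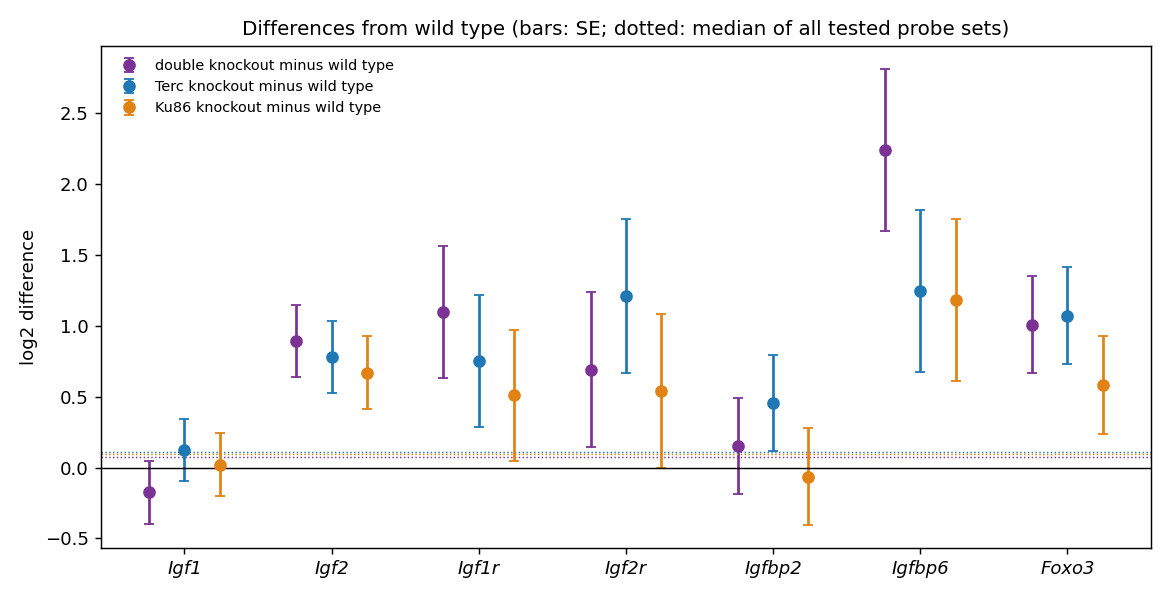
Log2 differences from wild type of the 7 tested genes in the double, Terc and Ku86 knockouts, with the SE of the fit as bars and the median of all tested probe sets as dotted lines. Igfbp6 in the double knockout stands highest at 2.24, and Igf1 and Igfbp2 are the 2 genes closest to 0 in all 3 genotypes.

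The knockout genotypes were then compared with one another, a difference that the stated choice of genes did not name. The knockout arrays had been in view for that choice, so these comparisons were not independent of it. With limma, 0 of the 7 genes were called in the double knockout against the Terc knockout, where 0% of all probe sets were called. The same count was 0 of 7 in the double knockout against the Ku86 knockout (0% of all) and 0 of 7 in the Terc knockout against the Ku86 knockout (0.0137% of all). At an unadjusted p under 0.05 there were 0 of the 7 genes in each of these comparisons, and 310, 245 and 174 of 7282 probe sets. Igfbp6 came nearest, with a log2 difference of 0.99 (95% confidence interval -0.26 to 2.24, adjusted p = 0.990) for the double over the Terc knockout. For the double over the Ku86 knockout it was 1.06 (-0.19 to 2.31, adjusted p = 0.9995). Both intervals include 0 and their upper ends are about as large as the difference of the double knockout from wild type, so with 2 arrays per genotype neither a difference nor its absence was shown.

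For Igf2, small estimates came with intervals reaching about as far as its differences from wild type, so no absence of a difference was shown. Its log2 difference was 0.11 (-0.44 to 0.67) for the double over the Terc knockout, 0.22 (-0.34 to 0.78) for the double over the Ku86 knockout and 0.11 (-0.45 to 0.66) for the Terc over the Ku86 knockout, in 95% confidence intervals. Foxo3 differed by -0.06 (-0.82 to 0.69), 0.43 (-0.33 to 1.18) and 0.49 (-0.26 to 1.24) in the same order. Igf2r differed by 0.67 (-0.52 to 1.85) for the Terc over the Ku86 knockout and by -0.52 (-1.70 to 0.67) for the double over the Terc knockout. It had passed the filter only through its knockout arrays. By mean intensity, the order of genotypes was double, Terc, Ku86 knockout and wild type for Igf2 and Igf1r. It was double, Ku86, Terc knockout and wild type for Igfbp6, Terc, double, Ku86 knockout and wild type for Foxo3 and Igf2r, and in none of these orders did neighbouring knockouts differ beyond their intervals.

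**Figure D3:**
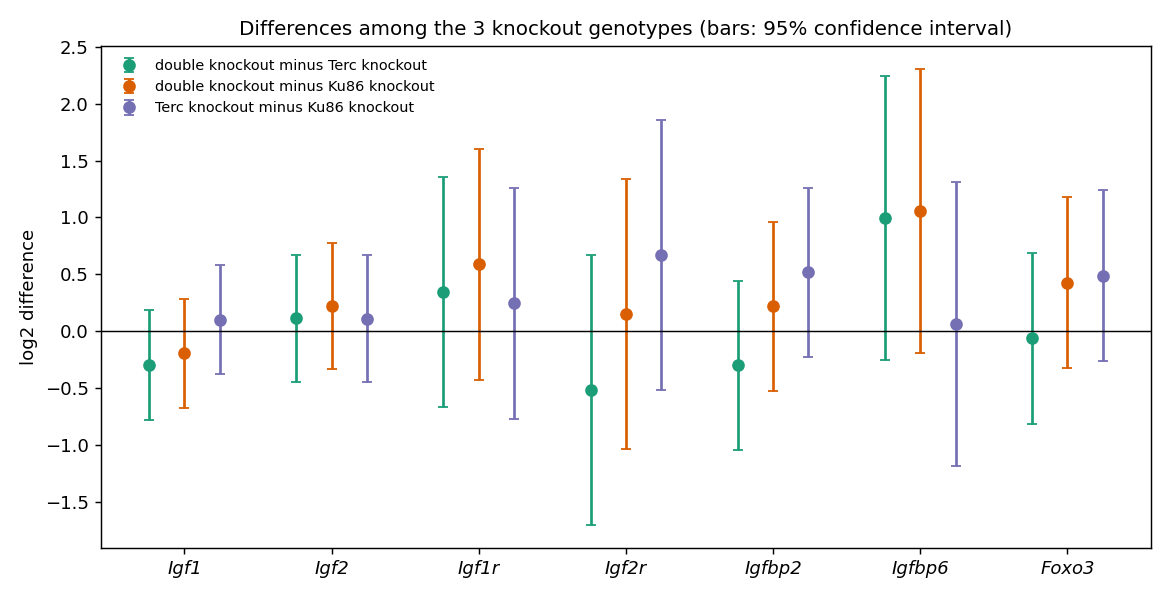
Log2 differences among the 3 knockout genotypes for the 7 tested genes, with 95% confidence intervals of the limma fit. Every interval includes 0, and those of Igfbp6 and Igf2r are the widest.

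In the interaction of both losses, the double knockout minus both single knockouts plus wild type, the 7 genes lay between -1.06 (Igf2r) and -0.16 (Igf1r) on the log2 scale. All 7 were below 0, but 4 of 7 after median centring, where 42.5% of all probe sets were above 0 before it, and the wild type values that had chosen the genes enter this quantity. Limma called 0 of the 7 genes and 0% of all probe sets, and 367 of 7282 had p under 0.05 before adjustment. Igf2 stood at -0.56 ± 0.36, Foxo3 at -0.65 ± 0.49 and Igfbp6 at -0.19 ± 0.81 (SE).

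Sertoli cell markers and peritubular, vascular and matrix markers had higher sums on every knockout array than on either wild type array. The same held for spermatogonia markers and macrophage markers. The 17 measured Sertoli cell markers summed to 5202 to 6157 on the double knockout arrays, 3769 to 4285 on the Terc knockout arrays, 3074 to 4601 on the Ku86 knockout arrays, and 2769 to 2875 on the wild type arrays. Of the 16 tested, 15, 15 and 13 were above 0 in the double, Terc and Ku86 knockouts against wild type. Of all tested probe sets, 58.7%, 61.1% and 59.7% were above 0. None of the 16 was called, where 0.0275%, 0.0275% and 0.0412% of all probe sets were. No measured Sertoli cell marker was at or under the floor on every array. The 16 peritubular, vascular and matrix markers summed to 3146 to 3681 on the double knockout arrays, 2654 to 3125 on the Terc knockout arrays, 2345 to 2986 on the Ku86 knockout arrays, and 1805 to 2025 on the wild type arrays. Their part in the values of Igf2, Igfbp6 and Foxo3 was not tested. The Ku86 knockout array with the lower Igfbp6 value, replicate 1, also had the lower Sertoli sum of that genotype. The same held for replicate 2 in the Terc knockout and in the wild type. The double knockout went the other way, with the lower Igfbp6 value but the higher Sertoli sum on replicate 1. Igf2 followed the order of the Sertoli sums in the double and Terc knockouts but not in the Ku86 knockout or the wild type. Foxo3 followed it in the Terc and Ku86 knockouts but not in the double knockout or the wild type.

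Leydig cell markers, 7 measured, summed to 1040 to 1800 on the double knockout arrays, 991 to 1544 on the Terc knockout arrays, 794 to 1182 on the Ku86 knockout arrays, and 829.8 to 1006 on the wild type arrays. Macrophage markers, 7 measured, summed to between 486 and 546 on the knockout arrays and between 467 and 474 on the wild type arrays. The 3 tested had median log2 differences of -0.06, 0.02 and -0.13 in the double, Terc and Ku86 knockouts. Spermatogonia markers, 7 measured, summed to 1088 to 1373, 931 to 1015 and 743 to 991 on the double, Terc and Ku86 knockout arrays, and 726 to 729.9 on the wild type arrays, and their median log2 differences were 0.81, 0.61 and 0.28. Spermatocyte markers had medians of -0.04, -0.01 and 0.10 on the log2 scale in the double, Terc and Ku86 knockouts against wild type, and spermatid markers -0.03, -0.01 and -0.03. The spermatocyte gene Sycp3 was at or under the floor on all 8 arrays.

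**Figure D4:**
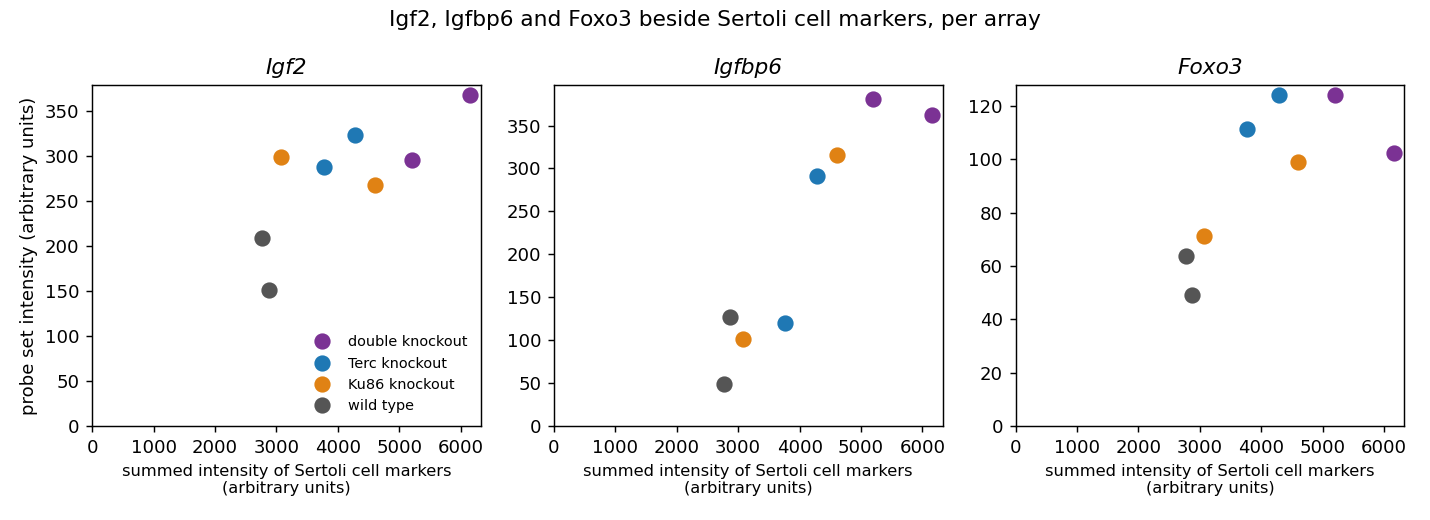
Intensity of Igf2, Igfbp6 and Foxo3 on each of the 8 arrays against the summed intensity of 17 Sertoli cell markers, both in arbitrary units, coloured by genotype. The wild type arrays have the 2 lowest marker sums (2769 and 2875) and the double knockout arrays the 2 highest (5202 and 6157).

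The probe sets with the pattern most like that of Igf2 were found by Pearson correlation of log2 values over the 8 arrays, among 6536 probe sets of other genes with 1 symbol, as a description. They were Mgat1, an enzyme of N-glycan synthesis (r = 0.95), Gstm6, a glutathione transferase (0.95), Sesn1, a p53 target (0.95), Dhh, a Sertoli cell signal (0.95), and Rad52, a DNA repair protein (0.95). Dhh read 369 and 341 on the double knockout arrays, 315 and 355 on the Terc knockout arrays, 326 and 327 on the Ku86 knockout arrays, and 201 and 267 on the wild type arrays. For Igfbp6 they were Itih2, a protein that stabilises hyaluronan (0.97), Csrp1, a LIM protein of smooth muscle (0.96), Ptgis, prostacyclin synthase (0.95), Cyb5r1 (0.95), and Clu, the Sertoli cell glycoprotein clusterin (0.94). Clu read 1410 and 1063 on the double knockout arrays, 842 and 511 on the Terc knockout arrays, 475 and 976 on the Ku86 knockout arrays, and 494 and 397 on the wild type arrays. As with Igfbp6, its higher array was replicate 1 in the Terc knockout and replicate 2 in the Ku86 knockout. In the double knockout Clu was higher on replicate 1 and Igfbp6 on replicate 2. Clu was picked for its likeness to Igfbp6 on these same arrays, so a shared order is no support. Among the 7 genes themselves, the highest correlations were those of Foxo3 with Igf2 (0.82), Igf1r (0.81) and Igf2r (0.78), and Igf1 correlated with Igf2 at -0.34. Arrays share their depth of signal and their genotype in all of these values.

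Beyond the 10 genes, 83 genes of the pathway were listed by role, of which 65 had a probe set with 1 symbol and 41 were tested. None of the 41 was called higher or lower against wild type in any knockout. Of all probe sets, 0.0275%, 0.0275% and 0.0412% were called in the double, Terc and Ku86 knockouts, so no absence of a difference was shown. Their median log2 difference was 0.03, 0.17 and 0.16 in the double, Terc and Ku86 knockouts, against 0.08, 0.11 and 0.10 over all probe sets. The 17 adaptors and kinases below the receptors had medians of 0.03, 0.08 and 0.06. The 7 Foxo factors and known targets had medians of 0.20, 0.33 and 0.10, the 5 growth hormone signalling genes -0.05, 0.15 and 0.21, and the 3 proteases and inhibitors -0.01, 0.40 and 0.38. The 4 other ligands, receptors and carriers had medians of 0.21, 0.42 and 0.07. The 5 RNA-binding and imprinted partners of Igf2 ran from -0.92 to 1.11 in the double knockout, with a median of 1.07, and had medians of -0.04 and 0.67 in the Terc and Ku86 knockouts.

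At the ends of these lists, Cdkn1c, a maternally expressed cell cycle inhibitor, lay lowest in the double and Terc knockouts. It read 998 and 915 on the double knockout arrays, 1086 and 731 on the Terc knockout arrays, 959.7 and 880.1 on the Ku86 knockout arrays, and 2206 and 1491 on the wild type arrays. Every knockout array was below both wild type arrays, with log2 differences of -0.92, -1.02 and -0.98 in the double, Terc and Ku86 knockouts, and none was called. Pik3r2, a regulatory subunit of phosphoinositide 3-kinase, was lowest in the Ku86 knockout at -1.16 and stood at -0.61 in the Terc knockout. On replicates 1 and 2 it read 32.5 and 84.5 in the Ku86 knockout and 161 and 84.8 in the wild type, so the replicate 2 arrays were alike. Igfals, the serum subunit that binds IGF1 with IGFBP3, stood at -0.90 in the double knockout, where wild type replicate 1 read 104 and replicate 2 read 28.1. On the higher side were Pdk4, a Foxo target that restrains glucose oxidation, at 1.15 in the double knockout and 0.93 in the Ku86 knockout, and Igf2bp1, which binds Igf2 mRNA, at 1.11 in the double knockout. Peg3, a paternally expressed gene, stood at 1.23 in the Terc knockout. Inpp5d, a phosphatase opposing phosphoinositide 3-kinase, stood at 1.00 in the Terc and 1.14 in the Ku86 knockout with overlap of the wild type in both.

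**Figure D5:**
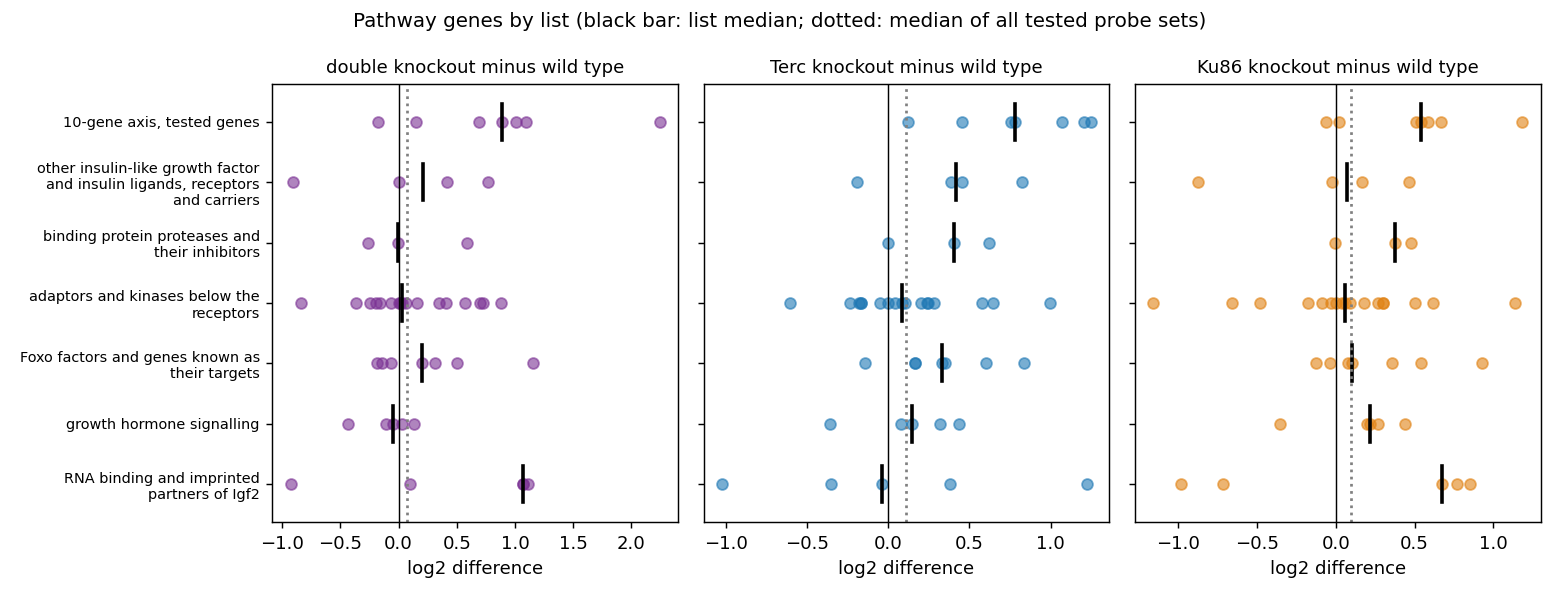
Log2 differences from wild type of the 7 tested axis genes and of the tested genes of each pathway list, 1 panel per knockout genotype, with the list median as a black bar and the median of all tested probe sets dotted. The axis genes have medians of 0.89, 0.78 and 0.54, and the adaptors and kinases lie around 0 with medians of 0.03, 0.08 and 0.06. The axis genes were chosen with these values in view, so their distance from the lists is no test.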

How the data were processed

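Testis RNA was hybridised to 8 Affymetrix MG_U74Av2 arrays. The authors deposited linear probe set intensity values, judged linear and globally scaled from the values themselves: trimmed of the extreme 2% at both ends, array means ran from 200.005 to 200.22. No source read here names their software. From these intensities, values below the pooled 20th percentile (11.8) were raised to it before taking log2. Of 12488 probe sets, 66 controls and 5140 dim ones were left out, leaving 7282. Symbols came from the platform annotation.

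Limma 3.58.1 in R 4.3.3 (lmFit, eBayes with a trend) was fitted to all 8 arrays with 1 mean per genotype, two-sided, with Benjamini-Hochberg adjustment over all 7282. The fit was tested on simulated data. The number of arrays limits the precision. Not every replicate is stated to be a separate animal, so p-values measure only the spread between these samples, which may be technical. Promoter windows came from RefSeq, GRCm38.p6. The members and lists were chosen with earlier results of these data known. Named were all members, the 2 highest and 2 lowest pathway genes per comparison with wild type, and the 5 probe sets most like Igf2 and Igfbp6. Alternatives covered scaling, floor, filter, variance trend, arrays, replicate number, scan day and threshold. The scanner records gave scan day and notes.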

Additional observations from a re-analysis of the deposited data

How the results depend on the processing

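With 2 arrays per genotype, and a scan day and chip lot that change together and differ between genotypes, the arrays limit what can be shown. Of 924 recomputed values of single genes, 53 changed sign, none of them called. These were 26 among the knockouts, 13 against wild type (Igf1, Igf1r, Igf2r and Igfbp2) and 14 in the interaction (Igf1r, Igfbp2 and Igfbp6). Many alternatives cannot change a difference, such as the filter, the variance trend or leaving out an array of a genotype not compared. The share of 53 in 924 is therefore no measure of how stable the signs were. Against wild type, Igf2, Igfbp6 and Foxo3 were above 0 in every alternative run. The genes were chosen with such values in view, so this constant sign is no support for them. The scan day 2 arrays alone (5 arrays, 1 residual degree of freedom, 1 array each for the double knockout, the Ku86 knockout and wild type) put 1 of the 7 genes past the threshold in each comparison with wild type. It was Igfbp6, which had been chosen for being higher in knockouts, so this is no test of it, and 30, 17 and 15 probe sets in all passed there in the double, Terc and Ku86 knockouts. On those arrays the Ku86 knockout exceeded wild type for 6 of 7 genes and 55.5% of all probe sets, and every knockout array did so for 6 of 7 genes and 26.1%. Leaving out wild type replicate 1 or 2 gave 4 genes for the Ku86 knockout in either case, with 35.6% and 48.9% of all probe sets, and 3 to 4 genes for all 6 knockout arrays, with 15.3% and 29.5%. These counts were added after seeing the data.

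For the double over the Terc knockout, the log2 difference with scan day as a block was -0.00505 for Igf2 and 0.12 for Foxo3. Within scan day 2 it was -0.046 for Igf2 and 0.076 for Foxo3, and median centring gave 0.0032 for Foxo3. Leaving out 1 array at a time gave -0.046 to 0.27 for Igf2, -0.14 to 0.83 for Igf1r, -0.69 to 0.082 for Igfbp2 and -0.20 to 0.076 for Foxo3. For the double over the Ku86 knockout, Igf2r was -0.066 when the 40th percentile served as floor and -0.75 within scan day 2, and leaving out arrays gave -0.49 to 0.79 for Igf2r and -0.020 to 1.20 for Igf1r. For the Terc over the Ku86 knockout, Igfbp6 was -0.029 after quantile normalization, -0.034 after median centring, -0.36 with the scan day block and -0.76 within scan day 2, and Igf1r was -0.30 and -0.36 under the last pair. Leaving out arrays gave -0.76 to 0.89 for Igfbp6, -0.36 to 0.85 for Igf1r and -0.12 to 0.32 for Igf1. The cause was not tested.

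With a replicate block, 0 of the 7 genes were called in any comparison. Against wild type 0 of all tested probe sets were called with that block, so its count says nothing particular of the 7 genes. The differences cannot change there, since each replicate number holds 1 array of every genotype. The deviations of the replicate 1 arrays from their genotype means correlated between 0.01 and 0.25 over 6 pairs of genotypes. All replicate 2 arrays share scan day 2 and its chip lot.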
